A study of Mus musculus with 10 samples.

Results

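The 171 genes described here are the GRCm38 protein-coding genes whose symbol is *Zfp* followed by 3 digits, the first of them 6 or higher, out of 21755 protein-coding genes on chromosomes 1 to 19 and X. The rule uses the symbol and no measured value, though the group was picked with earlier results of these data known. A gene with another of these genes within 200 kb was called clustered, which held for 107 genes in 28 clusters, and the other 64 were called lone. Chromosome 7 carried 35 of the genes, chromosome 17 carried 22 and chromosome 4 carried 20.

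The measurement was CUT&Tag of H3K4me3, a histone modification found at promoters, with the Tn5 transposase brought to it by antibody. The cells were naive extra-embryonic endoderm (nEnd), a culture model of the primitive endoderm (PrE) derived from mouse embryonic stem cells (ESCs) of the OCT4-mCherry reporter line, which was the only line used and had no treatment. PDGFRA-APC+ cells were sorted after PrE differentiation, grown on mouse embryonic fibroblast feeders in medium with LIF, CHIR99021 and Activin A, and sorted again on OCT4-mCherry and PDGFRA-APC. This gave 4 libraries of Oct4+ nEnd (reporter only), 3 of double-positive (DP) nEnd and 3 of Pdgfra+ nEnd (PDGFRA only). The methods speak of 3 biological replicates, and the sources used here do not say why Oct4+ nEnd has 4 libraries. Nothing in the labels ties the replicates to separate derivations, so the tests measure the spread between these libraries.

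Most mouse zinc finger genes with numbered *Zfp* symbols encode C2H2 proteins, and many of these carry a KRAB domain. KRAB zinc finger proteins bind DNA, often within retroelements, and recruit TRIM28, which brings the H3K9 methyltransferase SETDB1 and leads to heterochromatin. They are abundant in ESCs and the early embryo, many lie in tandem clusters that arose by duplication, and the set also holds conserved regulators without this role.

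The peak lists held 3477 to 10545 peaks per library, and reads per library are not given, so the depth is unknown. Promoter peaks marked 43.8%, 39.8%, 18.5% and 25.4% of all genes in Oct4+ nEnd replicates 1 to 4, 39.4% to 45.2% in DP nEnd and 33.8% to 51.2% in Pdgfra+ nEnd. Oct4+ nEnd replicate 3 had the shortest list and Pdgfra+ nEnd replicate 1 the longest. All 5 epiblast (Epi) markers (*Pou5f1*, *Nanog*, *Sox2*, *Esrrb*, *Klf2*) were marked in every Oct4+ and DP library, and 1, 0 and 0 in Pdgfra+ replicates 1 to 3. All 6 PrE markers were marked in every DP and Pdgfra+ library, and 4, 2, 1 and 0 in Oct4+ replicates 1 to 4. Of 15 fibroblast genes, which would show feeder cells, 0 to 2 were marked per library.

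The promoters shown first are those whose values recur below. Each is the RefSeq sequence on GRCm38.p6 from 250 bases before to 50 bases after the start, read 5′ to 3′ on the strand of the gene, and capitals mark CG dinucleotides, the sites of DNA methylation. *Zfp697* (chr3:98382231-98382530, plus strand) and *Zfp790* (chr7:29815822-29816121, plus strand) were marked in DP and Pdgfra+ nEnd and in no Oct4+ library. *Zfp936* (chr7:43177340-43177639, plus strand) and *Zfp819* (chr7:43606919-43607218, plus strand) were marked in Oct4+ nEnd alone. *Zfp961* (chr8:71950816-71951115, plus strand) had the largest difference in percentile between Oct4+ and Pdgfra+ nEnd, and *Zfp740* (chr15:102203750-102204049, plus strand) had a wide peak in Oct4+ nEnd.
Zfp697: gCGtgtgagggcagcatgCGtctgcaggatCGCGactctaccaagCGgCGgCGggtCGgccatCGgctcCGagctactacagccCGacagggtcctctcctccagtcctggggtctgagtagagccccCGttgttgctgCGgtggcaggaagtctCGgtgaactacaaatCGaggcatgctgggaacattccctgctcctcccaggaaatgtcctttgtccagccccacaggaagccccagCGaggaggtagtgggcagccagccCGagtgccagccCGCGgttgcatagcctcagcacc
Zfp790: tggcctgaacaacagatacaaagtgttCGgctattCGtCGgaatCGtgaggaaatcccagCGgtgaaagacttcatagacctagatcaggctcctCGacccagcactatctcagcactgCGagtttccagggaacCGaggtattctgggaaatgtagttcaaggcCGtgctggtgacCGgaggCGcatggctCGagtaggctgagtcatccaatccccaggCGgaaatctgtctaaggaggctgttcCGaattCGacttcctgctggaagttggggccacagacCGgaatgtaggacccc
Zfp936: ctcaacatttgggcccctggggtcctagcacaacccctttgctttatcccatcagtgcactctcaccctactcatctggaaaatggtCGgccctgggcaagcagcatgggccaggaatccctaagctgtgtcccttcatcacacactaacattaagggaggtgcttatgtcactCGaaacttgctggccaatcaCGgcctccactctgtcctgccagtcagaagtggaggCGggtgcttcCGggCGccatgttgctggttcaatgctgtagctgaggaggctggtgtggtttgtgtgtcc
Zfp819: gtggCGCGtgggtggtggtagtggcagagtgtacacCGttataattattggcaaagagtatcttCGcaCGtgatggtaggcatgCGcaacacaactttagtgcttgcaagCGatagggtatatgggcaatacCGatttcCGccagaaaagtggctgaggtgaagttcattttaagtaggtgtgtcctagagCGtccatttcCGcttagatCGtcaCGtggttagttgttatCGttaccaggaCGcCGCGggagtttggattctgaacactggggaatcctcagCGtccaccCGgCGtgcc
Zfp961: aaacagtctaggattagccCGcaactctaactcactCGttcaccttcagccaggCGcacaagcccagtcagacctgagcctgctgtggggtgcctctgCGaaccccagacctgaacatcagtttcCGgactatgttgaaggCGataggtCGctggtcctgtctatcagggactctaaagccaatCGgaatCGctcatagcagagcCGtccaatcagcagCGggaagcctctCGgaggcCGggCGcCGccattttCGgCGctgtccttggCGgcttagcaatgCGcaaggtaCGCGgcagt
Zfp740: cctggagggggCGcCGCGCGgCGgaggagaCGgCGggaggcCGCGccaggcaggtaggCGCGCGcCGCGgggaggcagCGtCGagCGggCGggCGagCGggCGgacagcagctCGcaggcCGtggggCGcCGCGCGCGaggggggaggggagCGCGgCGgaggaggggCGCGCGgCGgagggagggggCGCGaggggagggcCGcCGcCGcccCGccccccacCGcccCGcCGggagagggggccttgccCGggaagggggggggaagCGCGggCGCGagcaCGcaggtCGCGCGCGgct

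A pair of genes without a peak in any library shows how alike these promoters can be. The 300 bases of *Zfp966* (chr2:175931051-175931350, minus strand) and of *Zfp967* (chr2:176520754-176521053, plus strand) differed at 0 positions, so only the first is printed.
Zfp966: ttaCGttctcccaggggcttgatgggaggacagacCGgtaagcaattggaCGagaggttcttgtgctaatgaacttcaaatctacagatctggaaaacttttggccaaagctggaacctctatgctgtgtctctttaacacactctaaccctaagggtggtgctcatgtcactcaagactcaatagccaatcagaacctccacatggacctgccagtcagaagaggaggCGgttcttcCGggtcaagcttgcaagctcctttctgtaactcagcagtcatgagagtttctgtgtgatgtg

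CG dinucleotides numbered 19 in the promoter of *Zfp697*, 16 in *Zfp790*, 6 in *Zfp936*, 20 in *Zfp819*, 21 in *Zfp961*, 54 in *Zfp740* and 5 in *Zfp966*. Promoter sequences were found for 144 of the 171 genes. Among them the median was 19 CG dinucleotides in the 23 genes marked in all 10 libraries, 11 in the 82 genes marked in 1 to 9 and 6 in the 39 genes marked in none. The same order held over all protein-coding genes with a sequence, with a median of 26 in the 2911 marked in all 10 libraries and 4 in the 7285 marked in none. *Zfp740*, *Zfp777* and *Zfp651*, all marked in 10 libraries, had 54, 51 and 46. *Zfp618*, with 59, was marked in 1 library, while *Zfp710* and *Zfp652* were also marked in 10 with 4 and 5. Each gene had a single promoter sequence here, while a peak at any of its annotated starts marks it. The bases counted therefore need not lie under the peak. The octamer ATGCAAAT, read on both strands, occurred in 1 of the 144 promoters (0.694%) and in 1.66% of those of all protein-coding genes (1.77% of the 26794 promoters of the table). The GATA motif AGATAA, also on both strands, occurred in 13 (9.03%), against 9.69% of protein-coding genes and 11.4% of the table. Neither motif was found in any of the 7 promoters printed here.

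In each library 31 to 118 of the 171 genes had a promoter peak. In Oct4+ nEnd replicates 1 to 4 the number was 86, 75, 31 and 39, in DP nEnd replicates 1 to 3 it was 83, 92 and 74, and in Pdgfra+ nEnd replicates 1 to 3 it was 118, 58 and 73. The populations overlapped, with 33.8% ± 15.7 of the genes marked in Oct4+ nEnd (SD, n = 4), 48.5% ± 5.26 in DP nEnd (SD, n = 3) and 48.5% ± 18.3 in Pdgfra+ nEnd (SD, n = 3). The number moved with the length of the peak list. When every library was cut to its 3477 strongest peaks by total signal, it was 35, 32, 31 and 29 in Oct4+ nEnd, 29, 27 and 29 in DP nEnd and 29, 26 and 25 in Pdgfra+ nEnd. The share of the zinc finger genes was above that of all genes in 8 libraries and below it in Oct4+ replicates 3 and 4. In Pdgfra+ replicate 2, counted as above, the shares were nearly equal, at 33.9% and 33.8%.

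**Figure D1:**
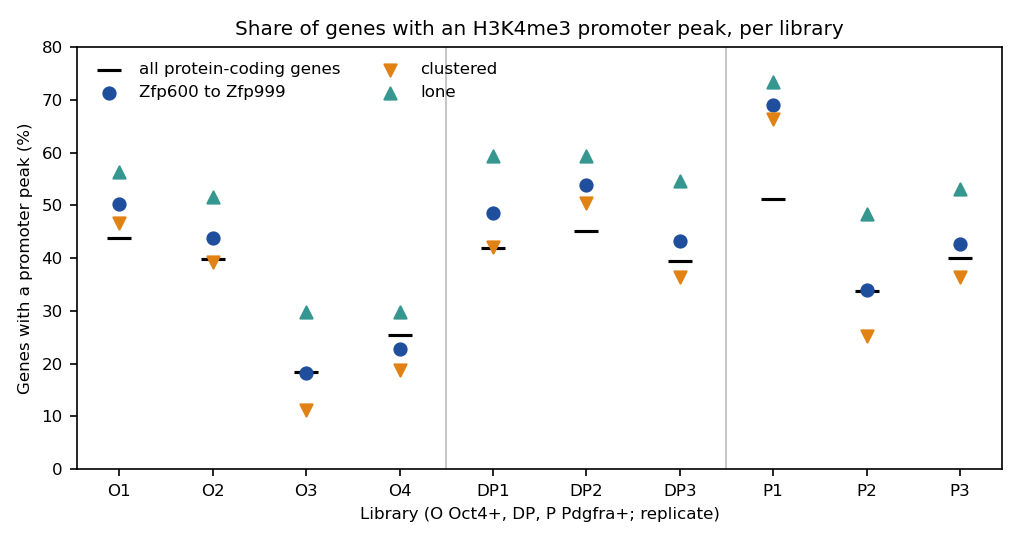
Share of genes with a promoter peak (%, vertical axis) in each of the 10 libraries, for all protein-coding genes (dash), the 171 zinc finger genes (circle) and their clustered (down triangle) and lone (up triangle) genes. The lone genes lie above the clustered genes in all 10 libraries, by 7.08 to 23.2 percentage points.

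Over the 10 libraries, 29 genes (16.96%) were marked in every library and 49 (28.7%) in none, against 16.6% and 46.5% of all genes. Another 23 genes were marked in exactly 1 library, and for 22 of these it was Pdgfra+ replicate 1, the library with the longest list. Their peaks there were weak, with a median percentile by total signal of 7.12 (lowest 2.24, highest 21.9), against 48.2 for the other 96 genes marked in that library. Percentile here and below is the rank of a peak among all peaks of its own library, since the signal was not scaled between libraries. Without Pdgfra+ replicate 1, 71 genes (41.5%) had no peak in any library, against 51.1% of all genes.

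**Figure D2:**
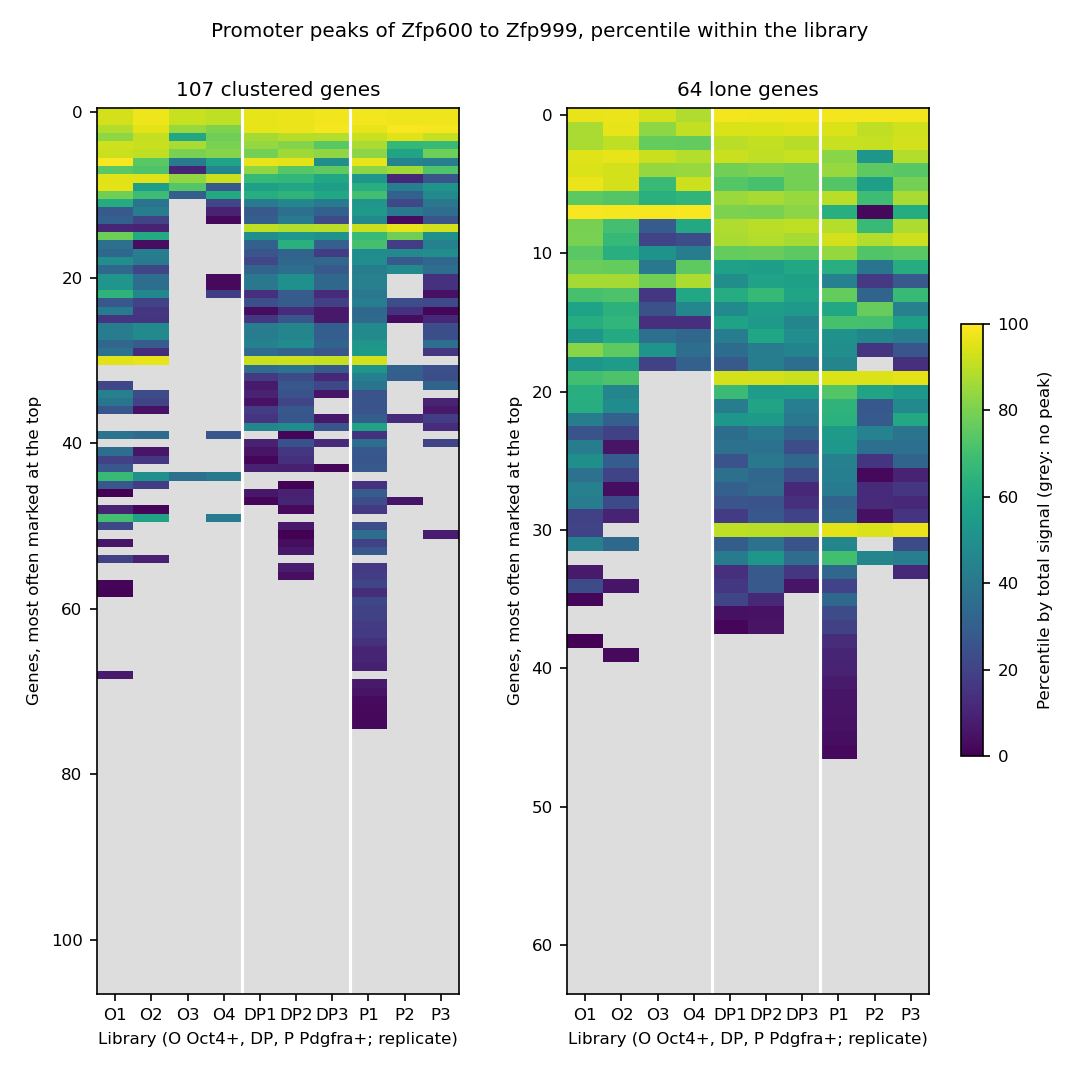
Percentile of the promoter peak by total signal (colour, grey where there was no peak) for the 107 clustered (left) and 64 lone genes (right) in rows and the 10 libraries in columns, ordered by the number of libraries marked. The column of Pdgfra+ replicate 1 (P1) holds peaks low in the order that no other library has.

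The median peak of these genes ranked below that of all marked genes in 8 of 10 libraries. The median percentile of the marked zinc finger genes was 40.6 to 42.1 in the DP libraries and 39.6 to 44.5 in the Pdgfra+ libraries, against 53.6 to 57.2 for all marked genes there. In Oct4+ replicates 1 and 2 it was 46.3 and 47.6, against 57.3 and 55.4, and in replicates 3 and 4, with the short lists, it was 63.6 and 59.7, against 52.7 and 53.7. The median width of their peaks was below that of all marked genes in 10 of 10 libraries, with 3113 to 3631 bp in Oct4+, 3338 to 3637 bp in DP and 2128 to 3149 bp in Pdgfra+ nEnd.

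Clustered genes were marked less often than lone genes in each library. The difference, clustered minus lone, averaged −12.8 ± 3.93 percentage points for Oct4+ nEnd (SD, n = 4), −14.8 ± 5.14 for DP nEnd (SD, n = 3) and −15.7 ± 8.11 for Pdgfra+ nEnd (SD, n = 3). In Pdgfra+ replicate 2, where it was widest, 25.2% of clustered and 48.4% of lone genes were marked. The genes marked in every library were 11 clustered and 18 lone, and the genes marked in none 32 clustered and 17 lone. Clustered genes also differed in how often the promoter sequence recurs in the genome. The share of 32-base words of the promoter windows that occur once in GRCm38 had a median of 82.7% in clustered genes, 96.8% in lone genes and 97.3% in all protein-coding genes. It was 22.2% in the 32 clustered genes without a peak and 90.6% in the other 75 clustered genes. In the 17 lone genes without a peak it was 95.6%, and in all protein-coding genes without a peak 96.3%. Among the 89 genes with at least 90% of such words found once (43 clustered, 46 lone), clustered minus lone ran from −22.7 to 14.6 percentage points and was negative in 7 of 10 libraries. Its mean was then −9.23 for Oct4+, −0.826 for DP and 2.12 for Pdgfra+ nEnd, and in Oct4+ replicates 3 and 4 it was wider than over all genes of the group, at −22.7 and −15.7. In the same 89 genes 30.3% to 83.1% were marked per library, above the share of all genes chosen the same way in 10 of 10 libraries. How reads that match several places were treated is not given in the sources used here, and the part of recurring sequence in the result was not tested.

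**Figure D3:**
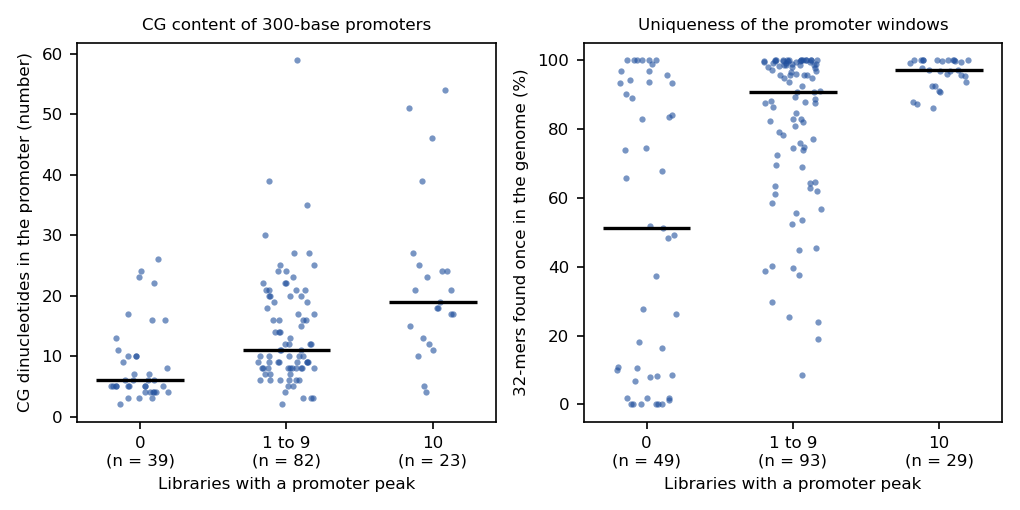
Number of CG dinucleotides in the 300-base promoter (left, 144 genes) and share of 32-base words of the promoter windows found once in the genome (right, %, 171 genes), by the number of libraries with a promoter peak. Points are genes, lines are medians, and the genes marked in 0 libraries have medians of 6 dinucleotides and 51.1%. By position, the second of these medians is 22.2% in the 32 clustered and 95.6% in the 17 lone genes.

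The clusters differed from each other. The largest, 13 genes on chromosome 17 (chr17:21383748-22456689), had 12 genes marked in at least 1 library, and its libraries averaged 3.25 marked genes in Oct4+, 5.67 in DP and 6 in Pdgfra+ nEnd. The Pdgfra+ replicates had 12, 0 and 6, and without replicate 1 the cluster had 7 genes marked in at least 1 library and a Pdgfra+ mean of 3. On chromosome 4, a cluster of 9 genes (chr4:146971976-147848366) had 8 genes marked in no library, and its 1 marked gene, *Zfp933*, had a peak in 6. The 8 unmarked genes include *Zfp989*, one of the genes studied as retroelement silencers, whose windows held 8.30% of words found once, while *Zfp933* had 99.5%. Of the 20 genes of chromosome 4, 15 had no peak in any library, as did 11 of the 15 genes of chromosome 2 (16 and 14 without Pdgfra+ replicate 1). The cluster of 7 genes around *Zfp768* on chromosome 7 (chr7:127244274-127615797) had 6 genes marked, and the clusters of 6 on chromosome 17 (chr17:32765496-33033402) and chromosome 13 (chr13:67038596-67687071) had 5 and 6 (5 and 4 without Pdgfra+ replicate 1). In 3 of the 28 clusters no gene was marked (5 without that library), and 9 held a gene marked in all 10 libraries.

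In the consensus peak lists that the authors made for each population, 74 of the 171 genes (43.3%) were marked for Oct4+ nEnd, 83 (48.5%) for DP nEnd and 76 (44.4%) for Pdgfra+ nEnd, against 39.8%, 42.4% and 40.8% of all genes. All 3 lists marked 65 genes and none marked 81. DP and Pdgfra+ nEnd shared 10 genes without Oct4+ nEnd, namely *Zfp606*, *Zfp623*, *Zfp629*, *Zfp697*, *Zfp703*, *Zfp790*, *Zfp810*, *Zfp868*, *Zfp948* and *Zfp954*, which is 5.85% against 4.47% of all genes. Oct4+ nEnd alone had 6 genes, all clustered (*Zfp692*, *Zfp747*, *Zfp819*, *Zfp882*, *Zfp936*, *Zfp990*), which is 3.51% against 2.58%. Oct4+ and DP nEnd shared *Zfp708*, *Zfp873* and *Zfp949*, DP nEnd alone had *Zfp608*, *Zfp619*, *Zfp712*, *Zfp932* and *Zfp959*, Pdgfra+ nEnd alone had *Zfp956*, and Oct4+ and Pdgfra+ nEnd shared 0. These 4 patterns held 1.75%, 2.92%, 0.585% and 0% of the zinc finger genes, against 1.78%, 0.910%, 0.896% and 0.188% of all genes. By pair of populations, 6 genes were in the Oct4+ and not the DP list (2.77% of all genes were) and 15 the reverse (5.38%), 9 were in the Oct4+ and not the Pdgfra+ list (4.36%) and 11 the reverse (5.37%), and 8 were in the DP and not the Pdgfra+ list (2.69%) and 1 the reverse (1.08%). With 1 list per population these counts have no replicate check.

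Compared library by library, 6 genes (3.51% of the 171) had a peak in all 3 DP libraries and in none of the 4 Oct4+ libraries, where 1.94% of all genes did. They were *Zfp623*, *Zfp629*, *Zfp697*, *Zfp790*, *Zfp868* and *Zfp948*. Of these, *Zfp623*, *Zfp697*, *Zfp790* and *Zfp868* were also marked in all 3 Pdgfra+ libraries (2.34%, against 1.43% of all genes), and *Zfp629* and *Zfp948* lacked a peak only in Pdgfra+ replicate 2. For a single gene, Fisher's exact test of 4 libraries against 3 cannot go below p = 0.0286 (two-sided). Adjusted over all genes with a peak in the pair (Benjamini-Hochberg), the smallest p was 0.649 for Oct4+ against DP nEnd and 0.851 for Oct4+ against Pdgfra+ nEnd, so no single gene passed. At an unadjusted p under 0.05 there were 7 of the 100 zinc finger genes with a peak in the first pair (467 of 10603 genes in all, 4.40%) and 5 of 122 in the second (390 of 11614, 3.36%).

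*Zfp697* stood at percentiles 41.7, 52.9 and 35.8 in DP replicates 1 to 3 and at 69.7, 45.4 and 42.8 in Pdgfra+ replicates 1 to 3. *Zfp790*, whose cluster neighbour *Zfp940* had no peak in any library, stood at 35.7, 38.2 and 28.2 in DP and at 52.9, 30.9 and 24.5 in Pdgfra+ nEnd. Both sat between percentiles 24.5 and 69.7, and the 4 Oct4+ libraries had no peak at either. *Zfp623* was lower, at 16.99, 23.4 and 11.4 in DP and 43.1, 30.4 and 24.1 in Pdgfra+ nEnd. *Zfp868* was lower still, at 15.4, 26.9 and 6.34 in DP and 29.6, 12.4 and 18.3 in Pdgfra+ nEnd. The highest percentile of the 6 genes in any library was the 69.7 of *Zfp697*, and with 3477 peaks per library none of the 6 genes differed in this way. Without Oct4+ replicate 1, 10 genes were marked in every DP and no Oct4+ library, and without Pdgfra+ replicate 2, 7 were marked in every Pdgfra+ and no Oct4+ library. The share of all genes was not counted in these settings, so these counts have no background.

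*Zfp703*, a corepressor of transcription, and *Zfp768* had strong peaks outside Oct4+ nEnd. *Zfp703* (chr8:26977325-26981461, plus strand) stood at percentiles 90.6, 89.8 and 89.1 in DP and 95.9, 94.5 and 97.1 in Pdgfra+ nEnd. In Oct4+ nEnd it had a peak in replicate 1 alone, at 20.5. *Zfp768* (chr7:127342795-127345589, minus strand) stood at 90.4, 88.5 and 89.6 in DP, at 91.9, 96.2 and 93.3 in Pdgfra+, and at 10.7 and 9.48 in Oct4+ replicates 1 and 2, with no peak in replicates 3 and 4. For both genes the lowest DP or Pdgfra+ value lies far above the highest Oct4+ value. With 3477 peaks per library they were the 2 genes (1.17%) marked in every DP and no Oct4+ library, against 2.06% of all genes, and the 2 marked in every Pdgfra+ and no Oct4+ library, against 2.25%. Neither entered the fit of percentiles, which needs a peak in every library. *Zfp800*, named here after its values were seen, had a like order, at 69.5 and 72.2 in Oct4+ replicates 1 and 2, no peak in replicates 3 and 4, 92.1 to 93.7 in DP and 94.4 to 96.0 in Pdgfra+ nEnd.

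In the other direction, *Zfp990* (chr4:145510759-145539188, plus strand) was the 1 gene (0.585%) with a peak in all 4 Oct4+ libraries and in no DP library, where 0.202% of all genes were, and in no Pdgfra+ library, where 0.359% were. It stood at percentiles 67.8, 50.2, 36.4 and 40.4 in Oct4+ replicates 1 to 4. Its windows held 29.8% of words found once. *Zfp936* was marked in Oct4+ replicates 1, 2 and 4, at 70.2, 57.6 and 41.3, and in no other library, so it joined *Zfp990* when replicate 3 was left out (2 genes, against 0.455% of all genes for DP and 0.602% for Pdgfra+ nEnd). *Zfp819*, a silencer of retrotransposons, had weak peaks in Oct4+ replicates 1 and 2, at 19.4 and 9.27, and in no other library. With 3477 peaks per library *Zfp990* had a peak in 3 of the 4 Oct4+ libraries and was no longer counted. *Zfp661* then had a peak in every Oct4+ and no DP library (1 gene, against 1.34% of all genes), and *Zfp661*, *Zfp704* and *Zfp961* in every Oct4+ and no Pdgfra+ library (3 genes, against 1.79%). The *Zfp661* peak was shared with the promoter of *Mrps5*, so the result cannot be told apart between the 2 genes. With the full lists *Zfp661*, *Zfp704* and *Zfp961* were marked in all 10 libraries. With the full lists, 0 of the 171 genes were marked in every DP and no Pdgfra+ library, and 0 in the reverse. Over all genes 0.11% and 0.0046% were. With 3477 peaks per library 1 gene, *Zfp961*, was marked in every DP and no Pdgfra+ library (0.331% of all genes were), and 0 in the reverse (0.179%). With Pdgfra+ replicate 1 left out, 4 genes were marked in every DP and no Pdgfra+ library. The share of all genes was not counted without that library.

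**Figure D4:**
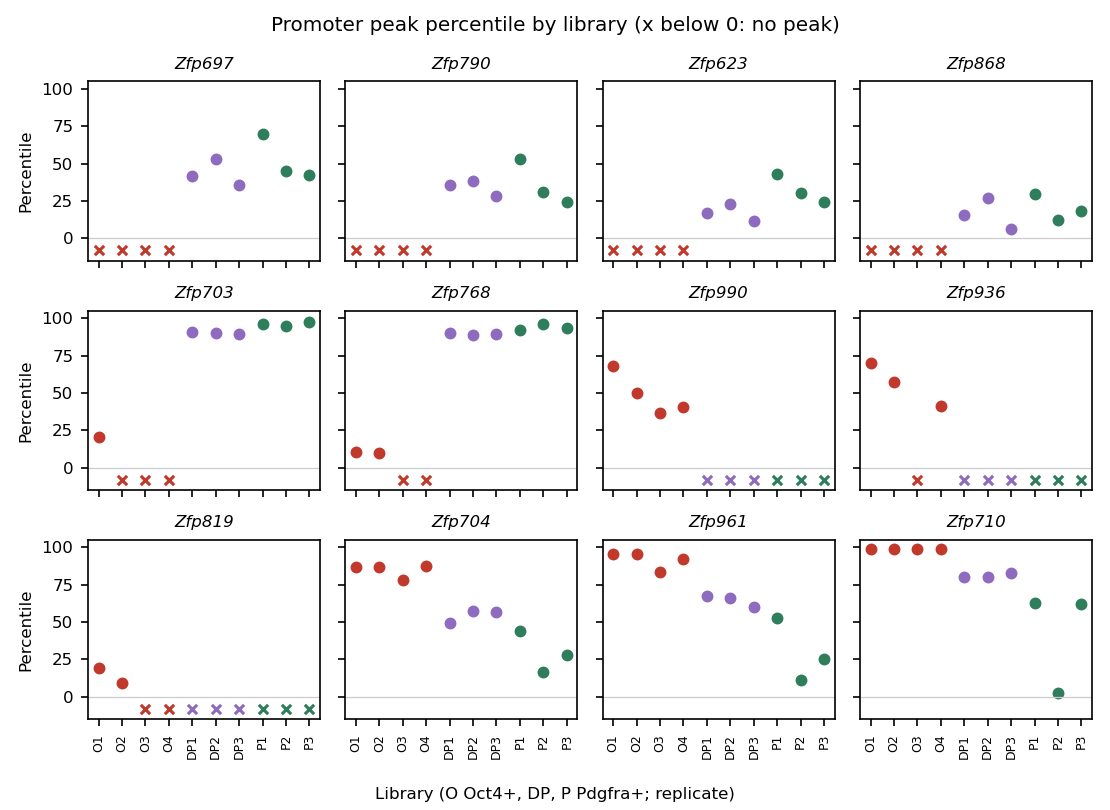
Percentile of the promoter peak by total signal (vertical axis) for 12 genes in the 10 libraries (O Oct4+, DP, P Pdgfra+ nEnd), with crosses below 0 where there was no peak. *Zfp703* and *Zfp768* stand at 88.5 or above in all DP and Pdgfra+ libraries, and *Zfp704*, *Zfp961* and *Zfp710* are highest in Oct4+ nEnd.

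The percentiles and widths were then compared with limma over the 4771 genes that had a promoter peak in all 3 DP, all 3 Pdgfra+ and Oct4+ replicates 1, 2 and 4. Oct4+ replicate 3, with the shortest list, was left out of the fit, since only 3616 genes had a peak in all 10 libraries. Of the zinc finger genes, 32 entered (14 clustered and 18 lone), so the genes compared here are the ones marked in every population, and the other 139 are described by presence above. Between Oct4+ and Pdgfra+ nEnd, *Zfp704* and *Zfp961* had a higher percentile in Oct4+ nEnd, 2 of 32 genes (6.25%) where 3.21% of all genes did. None of the 32 was higher in Pdgfra+ nEnd, where 2.70% of all genes were. With ranks among the genes tested, 11 were higher in Oct4+ and 3 in Pdgfra+ nEnd (906 and 974 of all genes), and with normal scores 4 and 2 (291 and 353). Without Oct4+ replicate 4, which let 52 of the group enter, 5 were higher in Oct4+ and 4 in Pdgfra+ nEnd, without Pdgfra+ replicate 1 or 2 there were 4 and 0, and without Pdgfra+ replicate 3 there were 1 and 0. The count over all genes, both directions together, moved as well. It ran from 64 (without Pdgfra+ replicate 3) to 1024 (without Oct4+ replicate 4). In the fit of Oct4+ and Pdgfra+ nEnd alone 0 of 32 passed, as did 0 of 4774 genes in all. The median difference over the 32 genes was 0.672 percentile points, against −2.20 over all genes tested. Between Oct4+ and DP nEnd 0 of 32 passed in either direction (0.398% of all genes higher in Oct4+ nEnd, 1.05% in DP nEnd), with 8 of the 32 at an unadjusted p under 0.05, as were 906 of the 4771 genes in all. In the fit of Oct4+ and DP nEnd alone 5 of 36 were higher in Oct4+ and 0 in DP nEnd, and the balance over all genes turned, from 19 higher in Oct4+ and 50 in DP nEnd to 240 and 51. With ranks among the genes tested 9 of 32 were higher in Oct4+ and 3 in DP nEnd (644 and 671 of all genes). Up to 4 passed when 1 library was left out (4 of 36, all higher in Oct4+ nEnd, without Pdgfra+ replicate 2, and 2 of 52, both higher in DP nEnd, without Oct4+ replicate 4). With 1 library left out, the count over all genes for Oct4+ against DP nEnd ran from 1 to 539, and was highest without Oct4+ replicate 4. Between DP and Pdgfra+ nEnd 0 genes of any kind passed, with 3 of the 32 at an unadjusted p under 0.05, as were 113 of the 4771 (2.37%). Without Pdgfra+ replicate 1, 1 of the 32 passed, as did 18 of all genes.

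*Zfp704* (chr3:9427020-9610085, minus strand) stood at percentiles 86.7, 86.7, 78.3 and 87.8 in Oct4+ replicates 1 to 4, at 49.6, 57.7 and 56.8 in DP and at 44.1, 16.7 and 28.1 in Pdgfra+ nEnd. The 3 populations did not overlap. Oct4+ minus Pdgfra+ nEnd was 57.4 points (SE 6.53, adjusted p = 0.00652). The call was lost, at adjusted p = 0.0603, in a fit of those 2 populations alone. *Zfp961*, a silencer that recognises the primer binding site of retroviruses, stood at 95.4, 95.4, 83.3 and 92.1 in Oct4+, at 67.2, 66.2 and 60 in DP and at 52.5, 11.3 and 25.4 in Pdgfra+ nEnd. These 3 populations did not overlap either. The difference was 64.6 points (SE 9.22, adjusted p = 0.0112), and it was not past the threshold in the fit of those 2 populations (adjusted p = 0.0753), by highest coverage (0.0675) or without Pdgfra+ replicate 3 (0.0561). Against DP nEnd, *Zfp704* differed by 32.3 points (SE 6.53, adjusted p = 0.0657) and *Zfp961* by 29.8 (SE 9.22, adjusted p = 0.152).

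*Zfp710* (chr7:80024814-80094173, plus strand) lay above *Zfp704* and *Zfp961* in Oct4+ nEnd, at 99.0, 98.7, 98.8 and 99.1. It stood at 80.3, 79.9 and 82.7 in DP and at 62.6, 2.33 and 62.1 in Pdgfra+ nEnd. Oct4+ minus Pdgfra+ nEnd was 56.6 points (SE 14.6), with an adjusted p of 0.0631. Without Pdgfra+ replicate 2, where the percentile was lowest, the difference was 36.6 points (adjusted p = 0.00507). It also passed with all 10 libraries (adjusted p = 0.0456), without Pdgfra+ replicate 1 (0.0412) and by highest coverage (0.00343). In the reverse direction the largest differences were those of *Zfp651*, which stood at 80.02, 66.8, 20.5 and 23.8 in Oct4+ and at 86.8 or above in every DP and Pdgfra+ library. Oct4+ minus Pdgfra+ nEnd was −34.5 points (SE 12.5, adjusted p = 0.137). With 1 library left out this difference ran from −46.0 to −17.9. *Zfp622*, which acts in maturation of the large ribosomal subunit, and *Zfp830*, which the preimplantation embryo needs, were lower in Oct4+ than in DP nEnd by 19.4 points (SE 6.92, adjusted p = 0.196) and 16.3 points (SE 7.69, adjusted p = 0.299), neither past the threshold. With 1 library left out, Oct4+ minus DP nEnd ran from −24.2 to −14.6 for *Zfp622* and from −23.7 to −7.50 for *Zfp830*. The peak of *Zfp830* was shared with the promoter of *Cct6b*.

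Over all genes, promoter peaks were narrowest in Pdgfra+ replicates 2 and 3. The median log2 difference in width over all genes tested was 0.33 for Oct4+ minus Pdgfra+, 0.42 for DP minus Pdgfra+ and −0.08 for Oct4+ minus DP nEnd, and over the 32 zinc finger genes it was 0.49, 0.43 and −0.02. Pdgfra+ replicate 2 had the narrowest peaks, with a median of 2241 bp over all marked genes. Between Oct4+ and Pdgfra+ nEnd, 4 of the 32 (12.5%) were wider in Oct4+ nEnd, where 4.38% of all genes were, and 0 were wider in Pdgfra+ nEnd, where 0.021% were. With the median width of each library subtracted, 4 were wider in Oct4+ and 3 in Pdgfra+ nEnd (*Zfp609*, *Zfp651* and *Zfp687*), as were 5.72% and 2.52% of all genes. Between Oct4+ and DP nEnd 0 of 32 passed in either direction (0.0419% of all genes in each), with 2 at an unadjusted p under 0.05 (4.09% of all genes), and between DP and Pdgfra+ nEnd 0 of 32 passed (0.356% wider in DP, 0% in Pdgfra+ nEnd), with 6 at an unadjusted p under 0.05 (16.5% of all genes). Without Pdgfra+ replicate 1, 12 of the 32 were wider in DP than in Pdgfra+ nEnd, as were 1232 of the 4771 genes, and without any other single library 0 were.

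The 4 genes with wider peaks in Oct4+ nEnd were *Zfp704*, *Zfp710*, *Zfp740* and *Zfp961*. The peak of *Zfp704* spanned 6588, 5719, 4473 and 9703 bp in Oct4+ replicates 1 to 4, 7203, 5639 and 5590 bp in DP and 4075, 2072 and 2260 bp in Pdgfra+ nEnd, so Oct4+ and DP overlapped and both lay above Pdgfra+ nEnd. Oct4+ minus Pdgfra+ nEnd was 1.42 on the log2 scale, a fold of 2.68 (SE 0.32, adjusted p = 0.0178). *Zfp961* spanned 8458, 6259, 5951 and 8061 bp in Oct4+, 6337, 6257 and 5586 bp in DP and 3786, 2132 and 2743 bp in Pdgfra+ nEnd, also a log2 difference of 1.42 (SE 0.29, adjusted p = 0.0104). *Zfp710* spanned 13052, 7696, 11177 and 11697 bp in Oct4+, 7010, 9985 and 9247 bp in DP and 5397, 2229 and 4511 bp in Pdgfra+ nEnd, a log2 difference of 1.48 (SE 0.34, adjusted p = 0.0207).

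*Zfp740* varied most among the Oct4+ libraries, at 14162, 5616, 3000 and 11761 bp, with 4763, 4323 and 4566 bp in DP and 5502, 2431 and 3832 bp in Pdgfra+ nEnd. Oct4+ minus Pdgfra+ nEnd was 1.40 (SE 0.36, adjusted p = 0.0356) over replicates 1, 2 and 4, and with replicate 3, the narrowest, the adjusted p was 0.241. Its peak was shared with the promoter of *Csad*, an enzyme of taurine synthesis, in all 10 libraries, so the width cannot be told apart between the 2 genes. All 4 width calls were lost without Oct4+ replicate 1 or without Oct4+ replicate 4 (0 of the 32, and of 52, genes passed). Without Pdgfra+ replicate 1, 14 of the 32 passed, as did 1236 of the 4771 genes in all. Without Pdgfra+ replicate 2 (36 genes tested) or without replicate 3 (32 tested), 1 passed. With 1 library left out, the count over all genes for Oct4+ against Pdgfra+ nEnd ran from 53 to 1236. It was lowest without Oct4+ replicate 1, where 53 of the 4771 genes and 0 of the 32 passed.

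**Figure D5:**
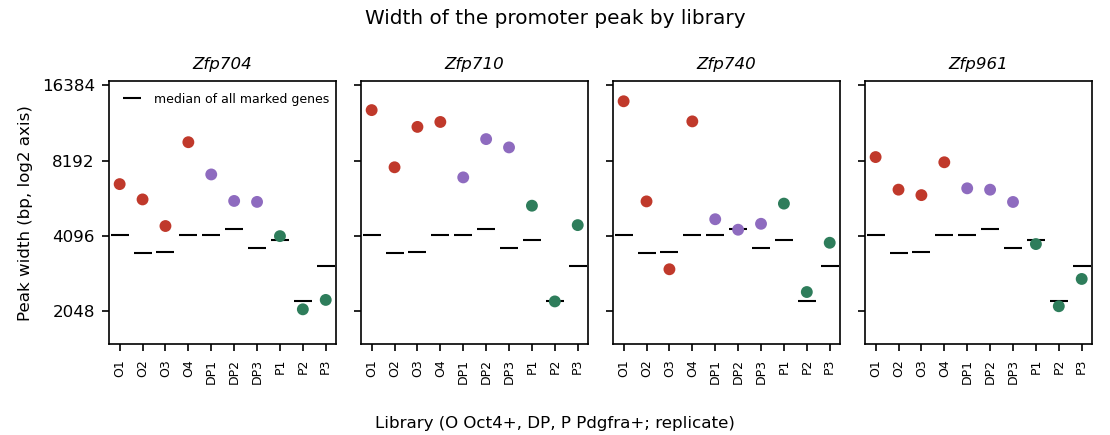
Width of the promoter peak (bp, log2 axis) of *Zfp704*, *Zfp710*, *Zfp740* and *Zfp961* in the 10 libraries (O Oct4+, DP, P Pdgfra+ nEnd), with dashes at the median width of all marked genes of the library. The dashes fall in Pdgfra+ replicates 2 and 3, and *Zfp704* lies from 2072 to 4075 bp in Pdgfra+ nEnd and from 4473 to 9703 bp in Oct4+ nEnd.

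Among the 6 genes studied as silencers of retroelements, *Zfp809* and *Zfp961* were marked in all 10 libraries. *Zfp809*, which silences murine leukaemia virus-type proviruses, stood at percentiles 92.6, 92.1, 87.2 and 80.1 in Oct4+, 84.1, 81.5 and 74.2 in DP and 87.2, 66.4 and 67.6 in Pdgfra+ nEnd, with overlap between the populations. *Zfp932* had weak peaks in Oct4+ replicate 1 (27.0), the 3 DP libraries (9.04, 8.60 and 1.43) and Pdgfra+ replicate 1 (28.0). *Zfp708* had them in Oct4+ replicates 1 and 2 (19.9 and 15.7), DP replicates 1 and 2 (1.55 and 13.5) and Pdgfra+ replicate 1 (26.9). *Zfp989* had no peak, and *Zfp819* is described above. *Zfp932* and *Zfp989* had 39.6% and 8.30% of words found once.

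Of the 12 conserved regulators, 7 were marked in all 10 libraries. *Zfp687* stood at percentile 88.0 or above in every library, and *Zfp827*, which binds the NuRD complex, stood at 88.9 to 96.6 in Oct4+, 90.4 to 92.0 in DP and 82.3, 52.6 and 88.5 in Pdgfra+ nEnd. *Zfp638*, which recruits the HUSH silencing complex to unintegrated retroviral DNA, stood at 24.96 to 64.3 in Oct4+, 47.9 to 55.7 in DP and 43.5 to 76.7 in Pdgfra+ nEnd, and *Zfp644*, a partner of the methyltransferases G9a and GLP, at 16.1 to 72.2, 58.5 to 66.9 and 32.2 to 76.4. For *Zfp638* and *Zfp644* the populations overlapped. All 3 Pdgfra+ values of *Zfp827* lay below its Oct4+ and DP values, and all 4 Oct4+ values of *Zfp687* lay below its DP and Pdgfra+ values, and the smallest adjusted p of these 2 genes in the limma fit of percentiles was 0.196. *Zfp750*, a factor of epidermal differentiation, had no peak, and *Zfp711* had one in Pdgfra+ replicate 1 alone, at 7.04. *Zfp692* was marked in Oct4+ replicates 1, 2 and 4 (38.1, 34.8 and 26.7), DP replicate 2 (1.38) and Pdgfra+ replicate 1 (14.7).

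The highest mean percentiles among the 32 genes belonged to *Zfp687* and to *Zfp646* and *Zfp668*, neighbours on opposite strands that share 1 peak in all 10 libraries and stood at 90.4 to 98.2. The strongest promoter peak of 21 of the 171 genes also overlapped the promoter of another gene in at least 1 library, among them the pairs *Zfp942* and *Zfp943*, and *Zfp758* and *Zfp944*. *Zfp605* reached 91.4 to 96.2 in 6 libraries through a peak shared with *Gtpbp6*, and had no peak in Oct4+ replicates 3 and 4 and Pdgfra+ replicates 2 and 3.

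A list of 24 genes was taken as cofactors of KRAB zinc finger proteins, and not all of them are specific to these proteins. Of these, 17 had a promoter peak in all 10 libraries, as did 16.6% of all genes, *Atf7ip2* had one in none, and *Setdb1* and *Atf7ip* had one in 2 libraries each. All 17 entered the fit. Between Oct4+ and Pdgfra+ nEnd, 4 of 17 had a higher percentile in Oct4+ nEnd, *Cbx1* (encoding HP1 beta), *Smarcad1*, *Resf1* (a SETDB1 partner) and *Morc3*, and 0 in Pdgfra+ nEnd, where 3.21% and 2.70% of all genes did. *Resf1* had mean percentiles of 84.6 in Oct4+ and 18.8 in Pdgfra+ nEnd, a difference of 65.8 (SE 9.57, adjusted p = 0.0119). None of these 4 calls held in the fit of Oct4+ and Pdgfra+ nEnd alone, where 0 of 4774 genes passed. The peaks of *Trim28*, *Daxx*, *Kdm1a*, *Resf1* and *Morc3* were wider in Oct4+ than in Pdgfra+ nEnd (5 of 17, 0 in reverse, against 4.38% and 0.021% of all genes). That of *Trim28* was wider by 1.63 on the log2 scale (SE 0.35, adjusted p = 0.0131). It spanned 19200, 7473, 6471 and 17841 bp in Oct4+ replicates 1 to 4 and 4890, 3958 and 4434 bp in Pdgfra+ replicates 1 to 3. In DP replicates 1 to 3 it spanned 10148, 5971 and 7866 bp. That of *Daxx* also varied among the Oct4+ libraries, at 24793, 8785, 8673 and 17827 bp. When 1 library was left out, the count of all genes that differed in width ran from 53 to 1236. Between DP and Pdgfra+ nEnd, *Daxx* was wider in DP nEnd (1 of 17, against 0.356% of all genes, a count over all genes that ran from 1 to 1232 when 1 library was left out), and no other comparison gave a call.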

How the data were processed

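H3K4me3 CUT&Tag peak lists of 10 libraries (4 Oct4+, 3 DP and 3 Pdgfra+ nEnd) and a consensus list of each population were used as deposited. Per the labels and the methods of the study, the authors demultiplexed reads with bcl2fastq 2.19.1, aligned them to mm10 with Bowtie2, handled them with SAMtools 1.12 and bedtools 2.26.0, made tracks with deepTools, called peaks with SEACR in stringent mode against IgG and built consensus lists with DiffBind. The deposited lists give for each peak its total signal (summed coverage) and its highest coverage, with no scaling between libraries. How reads that match several places were treated is not given in the sources used here.

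A gene was called marked where a peak overlapped the window from 1000 bp before to 100 bp after any of its annotated starts by at least 1 bp (93196 starts of 21755 protein-coding genes, GRCm38). Where several peaks overlapped, the one with the highest total signal was kept. Percentiles rank total signal within a library. Percentiles and log2 widths were compared with limma 3.58.1 (R 4.3.3) over all 4771 genes marked in the 9 libraries of the fit, with Benjamini-Hochberg adjustment over all of them and a threshold of 0.05. Presence was compared gene by gene with Fisher's exact test (scipy 1.17.1). Groups follow the labels. The scripts were tested on simulated data. Named genes were those marked in every library of one population and none of another or in 1 or 2 consensus lists, the 3 largest differences in each direction, the 3 highest and widest, silencers, conserved regulators and cofactors. Genes outside this rule (*Zfp605*, *Zfp618*, *Zfp758*, *Zfp777*, *Zfp800*, *Zfp933*, *Zfp940*, *Zfp942* to *Zfp944*, *Zfp965* to *Zfp968*, *Zfp971*, *Zfp973*, *Zfp979*, *Zfp980*) were named after their values were seen. The zinc finger genes and these lists were chosen with earlier results of these data known. Intervals of counting error could not be had, since read numbers are unknown. The alternatives were other windows, covers and peak numbers, other cluster distances, other sets of libraries, a replicate block, highest coverage, ranks among the genes tested, normal scores, summed widths and widths relative to the library median. Restricting starts to coding transcripts, restricting genes by recurring sequence and counting clusters and chromosomes without Pdgfra+ replicate 1 were chosen after seeing the data.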

Additional observations from a re-analysis of the deposited data

Results flagged for a closer look

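In 4 of 48 sets of 4 Oct4+ nEnd values, 1 library lay far from the other 3 by Dixon's gap-to-range ratio at its 95% critical value, where chance gives about 1 in 20. The percentile of *Zfp652*, a partner of the corepressor CBFA2T3, was 40.6 in replicate 3, against 75.1 to 77.2 in the others. That of *Zfp704* was 78.3 in replicate 3, against 86.7 to 87.8, and that of *Zfp740* was 67.4 in replicate 3, against 92.4 to 96.96. All 3 are low in the library with the shortest peak list, which did not enter the fit. The peak of *Zfp651* spanned 5547 bp in replicate 1, against 3278 to 3631 bp in the others. The causes were not tested.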

How the results depend on the processing

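The replicate numbers did not clearly pair the libraries. The 7 pairs of libraries with the same number had correlations of −0.185 to 0.222 (mean 0.0957). The 20 pairs with different numbers had correlations of −0.386 to 0.318 (mean −0.0351). With a replicate block, the counts of zinc finger genes past the threshold were 0 (percentile) and 2 (width) for Oct4+ against Pdgfra+ nEnd and 2 for width in DP against Pdgfra+ nEnd. Over all genes the block moved the percentile counts from 69 to 44 (Oct4+ against DP) and from 282 (153 higher and 129 lower in Oct4+ nEnd) to 114 (30 higher and 84 lower, Oct4+ against Pdgfra+), and the width counts from 4 to 8 (Oct4+ against DP), from 210 to 137 (Oct4+ against Pdgfra+) and from 17 to 102 (DP against Pdgfra+). For percentile in DP against Pdgfra+ nEnd 0 genes passed. The block also took the adjusted p of *Zfp704* and *Zfp961* by percentile to 0.0572 and 0.0638, and those of *Zfp704*, *Zfp961* and *Zfp740* by width to 0.150, 0.0527 and 0.0717.

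For percentile in Oct4+ against DP nEnd the zinc finger genes past the threshold numbered 5 with those 2 populations alone, 1 with peaks at 1 gene only, 1 by highest coverage, 12 with ranks among the genes tested (9 higher in Oct4+ nEnd) and 3 with normal scores (all higher), and all genes numbered 13 with all 10 libraries, then 291, 41, 1315 and 248 for 2 populations, highest coverage, ranks and normal scores. For Oct4+ against Pdgfra+ nEnd the zinc finger genes numbered 0 with 2 populations, 1 without the lowest 25% of peaks, 14 with ranks among the genes tested (11 higher in Oct4+ nEnd) and 6 with normal scores (4 higher), and all genes 163, 0, 89, 1880 and 644 for all 10 libraries, 2 populations, highest coverage, ranks and normal scores. For DP against Pdgfra+ nEnd ranks gave 1 zinc finger gene and 32 genes in all. For width, subtracting the library median gave 1 zinc finger gene (43 of all) for Oct4+ against DP and 7 (393 of all) for Oct4+ against Pdgfra+ nEnd. All genes also numbered 1, 7, 7 and 8 for Oct4+ against DP nEnd (all 10 libraries, 2 populations, 1 gene only, summed widths), 103 for Oct4+ against Pdgfra+ nEnd (all 10) and 41 and 10 for DP against Pdgfra+ nEnd (2 populations, summed widths).

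The share of zinc finger genes marked in DP nEnd was 16.6% with equal numbers of peaks, 36.5% without the lowest 25% of peaks, 39.6% with peaks at 1 gene only, and 59.6% and 65.5% with at least 50% and 90% of words found once. In Pdgfra+ nEnd it was 15.6% with equal numbers. Presence in every library of one population and none of another then held for 3 genes (Oct4+, not Pdgfra+), 2 (DP, not Oct4+), 1 (DP, not Pdgfra+) and 2 (Pdgfra+, not Oct4+, also 2 with a cover of 50%). Clustered minus lone in Oct4+ nEnd was −8.87, −19.0 and −19.2 with 100 kb, 500 kb and any *Zfp* gene and −7.87 at 50% of words found once. In DP nEnd it was −20.8 without the lowest 25% of peaks, −6.42 and −23.8 with 100 and 500 kb, and −5.38 and −0.826 at 50% and 90%. In Pdgfra+ nEnd it was −7.98 and −23.8 with 100 and 500 kb, −6.66 at 50% and, in the reverse direction, 2.12 at 90%. The last 2 settings were chosen after seeing the data.

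Leaving out each library in turn gave 0 to 4 (Oct4+ against DP), 1 to 9 (Oct4+ against Pdgfra+) and 0 to 1 (DP against Pdgfra+) zinc finger genes by percentile and 0 to 0, 0 to 14 and 0 to 12 by width, and over all genes 1 to 539, 64 to 1024 and 0 to 18, then 0 to 10, 53 to 1236 and 1 to 1232. The presence counts ran over 1 to 2 (Oct4+, not DP), 6 to 10 (DP, not Oct4+), 4 to 7 (Pdgfra+, not Oct4+) and 0 to 4 (DP, not Pdgfra+). These were counted over the zinc finger genes alone. Differences not past the threshold changed sign for *Zfp638* percentile in DP minus Pdgfra+ nEnd (−15.8 to 0.853 over left-out libraries, 1.92 by highest coverage) and for width in *Zfp687* (Oct4+ minus Pdgfra+ −0.57 to 0.029, DP minus Pdgfra+ −0.23 to 0.37, −0.44 minus the library median), *Zfp651* (DP minus Pdgfra+ −0.22 to 0.31, −0.38 minus the median) and *Zfp609* (DP minus Pdgfra+ −0.39 to 0.20). The causes were not tested. In all, 279 summary values stayed as reported, 116 moved and 1 reversed. With unknown read depth, a missing peak cannot be told apart from a shallow library, and Oct4+ replicates 3 and 4 rest on the shortest lists.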

Other observations

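Pairs of these promoters that were at least 80% identical over 300 bases numbered 4. *Zfp966* and *Zfp967* differed at 0 positions, *Zfp968* and *Zfp973* at 1, *Zfp965* and *Zfp971* at 9, and *Zfp979* and *Zfp980* at 45. Of these 8 genes, 6 had no peak in any library.

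Chromosome 13 held 10 of the genes and none was without a peak in all libraries, and on chromosome 17 this held for 2 of 22. Without Pdgfra+ replicate 1 the numbers were 4 of 10 and 7 of 22. On chromosome 7, 7 of 35 were marked in every library and 7 in none.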
